A study of Mus musculus with 12 samples.

Results

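The 10 genes described here, called the members below, encode adhesion proteins that are best known from epithelia and that are also read in gut dendritic cells (DCs): *Cldn1*, *Plet1*, *Cdh1*, *Epcam*, *Cdh17*, *Mpzl2*, *F11r*, *Tjp1*, *Ctnnd1* and *Ctnnb1*. They were chosen by name with earlier results of these same libraries known, and which comparison led to each choice was not recorded. Their differences between groups are therefore given below as a description, without p-values. Where a member is said to be called, this reports its place in a fit over all genes and is no independent evidence, because the choice of genes rests on these same libraries. All 10 were among the 20580 genes tested, out of 53801 genes counted. Genes of other lists were set by textbook role, but with earlier results known, so their adjusted p-values are no independent evidence either. The libraries came from small-intestinal DCs sorted as CD103+CD11b- or CD103-CD11b+ cells, from wild-type (WT) mice and from Cbfb-cKO (cKO) mice, with 3 replicates in each of the 4 groups. The cKO mice were CbfbF/F:CD11c-Cre, in which Cre under the CD11c promoter deletes a floxed part of *Cbfb* in CD11c-expressing cells. CD11c-Cre is not restricted to DCs, and some gut T cells recombine as well. All mice were labelled as being of mixed background, none was treated. The controls of these libraries are called wild-type in the sources, with no statement for these libraries of their age or of whether they carried Cre. Per the study, the 3 samples of a group came from 3 mice.

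Tight junctions seal neighbouring epithelial cells through claudins and junctional adhesion molecules, which ZO-1 ties to actin. Adherens junctions hold cells together through cadherins, whose tails bind p120-catenin and beta-catenin, and beta-catenin that is not held there acts with TCF/LEF factors in the nucleus. EpCAM and E-cadherin are found on some DCs as well as on epithelium, and intestinal DCs can push processes between epithelial cells while keeping the barrier closed.

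Counts on genes ranged from 2161929 to 5863484 per library. *Cbfb* itself was read at 161 to 228 CPM (reads on the gene, scaled to library size) in WT libraries and at 170 to 290 CPM in cKO libraries. These counts cover the whole gene and not the deleted part alone, so they check no label. DC genes were present in every library, with 8 pan-DC markers summing to 3327 to 6307 CPM, and the cDC1 markers were higher in CD103+CD11b- DCs, where they summed to 5635 to 9550 CPM against 2168 to 3838 CPM in CD103-CD11b+ DCs. The study defined gut cDCs by flow cytometry as CD45+CD64-CD11c+MHC-II+, a gate that would remove CD45- epithelial and stromal cells and CD64+ macrophages, while the labels of these libraries say only that DCs were flow-sorted. Genes of other cells were read all the same, and 3 libraries stood apart from their groups. A sum over 10 stromal and endothelial markers came to 694 CPM in WT CD103+CD11b- replicate 3, against 134 and 95.2 CPM in the other replicates. The same markers summed to 123 CPM in cKO CD103-CD11b+ replicate 3, against 1030 and 2266 CPM. The 28 tested intestinal epithelial markers summed to 286 CPM in cKO CD103+CD11b- replicate 2, against 30.6 and 37.5 CPM. In bulk samples such as these, fewer cells with a transcript and less transcript per cell cannot be told apart.

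*Cldn1*, *Plet1* and *Epcam* were the members called lower in cKO DCs in at least 1 subset, and the sequence upstream of each is shown for that reason. Each is the 250 bases before the RefSeq start (GRCm38.p6), written 5′ to 3′ in the direction of the gene. *Cldn1* lies on the minus strand with its window at chr16:26371840-26372089. *Plet1* lies on the plus strand at chr9:50494275-50494524, and *Epcam* on the plus strand at chr17:87635729-87635978. Capitals mark CAGGTG or its reverse complement CACCTG, the E-box bound by ZEB and SNAIL factors, which are known repressors of epithelial adhesion genes.
Cldn1: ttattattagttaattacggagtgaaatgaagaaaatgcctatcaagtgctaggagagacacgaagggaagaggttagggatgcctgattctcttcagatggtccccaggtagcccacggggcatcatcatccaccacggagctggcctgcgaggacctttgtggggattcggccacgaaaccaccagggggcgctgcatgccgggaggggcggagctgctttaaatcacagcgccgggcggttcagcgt
Plet1: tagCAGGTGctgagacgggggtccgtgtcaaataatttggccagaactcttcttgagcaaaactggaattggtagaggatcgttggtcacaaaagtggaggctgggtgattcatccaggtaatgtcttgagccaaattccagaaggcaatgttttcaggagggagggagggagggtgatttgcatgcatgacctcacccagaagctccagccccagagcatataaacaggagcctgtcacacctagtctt
Epcam: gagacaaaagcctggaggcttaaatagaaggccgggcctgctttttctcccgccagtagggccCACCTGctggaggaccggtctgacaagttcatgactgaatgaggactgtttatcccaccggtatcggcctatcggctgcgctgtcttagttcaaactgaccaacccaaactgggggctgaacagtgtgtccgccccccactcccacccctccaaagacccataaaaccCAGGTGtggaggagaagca
CAGGTG was searched on both strands, and it stood once in the *Plet1* window and 2 times in the *Epcam* window, the nearer of which began 19 bases before the start. It was not in the *Cldn1* window, and 17.2% of all 32851 windows of this length held it. Cbfb is the partner of the Runx proteins, whose motif was searched as TGTGGT or TGCGGT on both strands. None of the 3 windows held these letters, while 18.6% of all windows did. A match or its lack describes only these letters in this stretch.

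Of the members, 3 were called lower in cKO than in WT CD103+CD11b- DCs and 0 higher. A call is an edgeR quasi-likelihood false discovery rate (FDR) under 0.05 with a fold change over 1.3. Of all genes tested, 0.797% were called lower and 0.224% higher in this comparison, and nothing is read from the members' count because they were chosen on such results. In CD103-CD11b+ DCs, 1 member was called lower and 2 higher, where 0.5% of all genes were called lower and 1.11% higher. The median log2 fold change of the 10 members was -0.66 for the CD103+CD11b- subset and -1.04 for the CD103-CD11b+ subset, beside -0.02 and -0.06 over all genes.

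**Figure D1:**
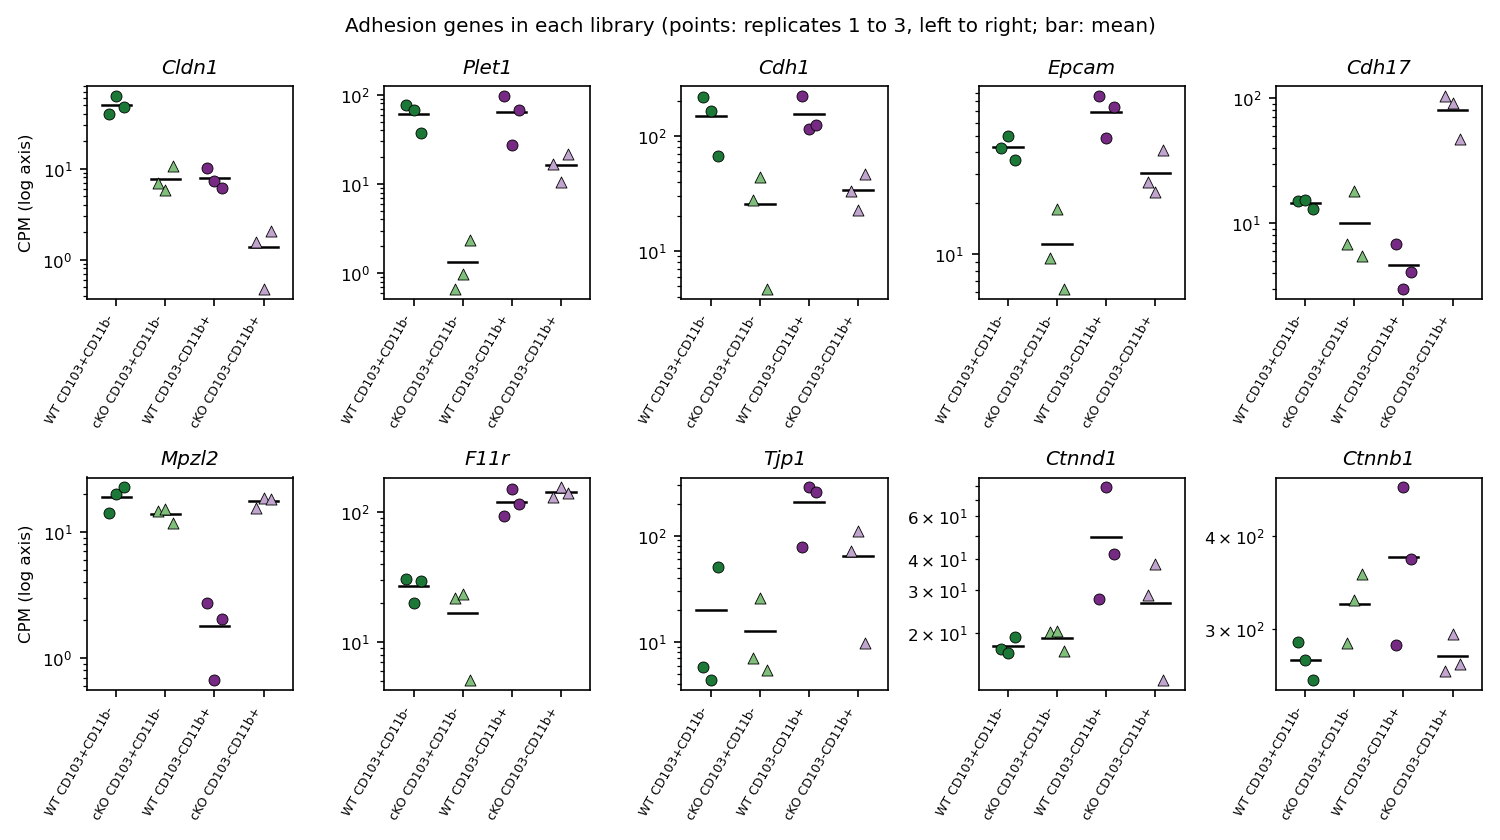
Expression of the 10 members in each library, in CPM on a log axis that differs between panels, with replicates 1 to 3 from left to right and the group mean as a bar. *Cldn1*, *Plet1*, *Cdh1* and *Epcam* lie lower in cKO (triangles) than in WT (circles) in both subsets, while *Cdh17* is highest in cKO CD103-CD11b+ DCs.

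*Cldn1* (ENSMUSG00000022512, chromosome 16, 26356642 to 26371841, minus strand, GRCm38) encodes claudin-1, a strand-forming protein of tight junctions. In CD103+CD11b- DCs it was read at 39.7, 63.4 and 47.0 CPM in WT replicates 1, 2 and 3, and at 6.88, 5.86 and 10.6 CPM in cKO replicates. In CD103-CD11b+ DCs it was read at 10.2, 7.33 and 6.11 CPM in WT and at 1.57, 0.476 and 2.04 CPM in cKO. The genotypes did not overlap in either subset, and the subsets did not overlap in either genotype. The log2 fold change of cKO over WT was -2.70 ± 0.37 (SE, n = 3 per group) in the CD103+CD11b- subset and -2.62 ± 0.45 in the CD103-CD11b+ subset, and both were called. The level in cKO CD103+CD11b- DCs, at 7.77 ± 2.47 CPM (SD, n = 3), thus lay beside that of WT CD103-CD11b+ DCs, at 7.87 ± 2.09 CPM. Only 13 reads of *Cldn1* were counted over the 3 cKO CD103-CD11b+ libraries (exact Poisson 95% interval 6.92 to 22.2, for counting error only). Its call in CD103-CD11b+ DCs was lost without cKO CD103-CD11b+ replicate 1 or 2, in a fit to the 6 libraries of this comparison alone, and at an FDR under 0.01. Its call in CD103+CD11b- DCs was lost without WT replicate 2, cKO replicate 1 or cKO replicate 2.

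*Plet1* (ENSMUSG00000032068, chromosome 9, 50494525 to 50505482) encodes a GPI-anchored surface protein of trophoblast and epithelial progenitor cells, also known from DCs. It was read at 77.6, 67.7 and 36.9 CPM in WT CD103+CD11b- DCs and at 0.666, 0.976 and 2.35 CPM in the cKO libraries. In CD103-CD11b+ DCs the WT values were 97.9, 27.3 and 67.2 CPM and the cKO values 16.6, 10.5 and 21.9 CPM. The WT subsets thus overlapped, and *Plet1* was lower in every cKO library than in any WT library. The cKO effect was a log2 fold change of -5.61 ± 0.63 among CD103+CD11b- DCs, which was called, with 13 reads counted over the 3 cKO libraries against 751 in WT. That call was made in all 12 fits that each left out 1 library. Among CD103-CD11b+ DCs it was -2.00 ± 0.48, which was not called although the groups did not overlap. That comparison was called with a DESeq2 fit, with no low-count filter, with the replicate number as a block, or without WT CD103-CD11b+ replicate 2. The cKO effect on *Plet1* differed between the subsets by a log2 value of 3.61 ± 0.78, which was not called by the edgeR fit and was called with DESeq2, with no low-count filter, or without WT CD103-CD11b+ replicate 1. Within cKO, *Plet1* was higher in CD103-CD11b+ DCs by a log2 value of 3.70 ± 0.63, which was called.

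*Cdh1* (ENSMUSG00000000303, chromosome 8, 106603351 to 106670246) encodes E-cadherin, the classical cadherin of epithelial adherens junctions. WT CD103+CD11b- DCs held 217, 166 and 67.7 CPM, and cKO CD103+CD11b- DCs held 28, 43.9 and 4.69 CPM. WT CD103-CD11b+ DCs held 224, 116 and 124 CPM, and cKO CD103-CD11b+ DCs held 33, 22.6 and 46.9 CPM. All 6 cKO values lay below all 6 WT values. The replicates of a group differed widely, and no cKO effect was called, at log2 values of -2.52 ± 0.63 for the CD103+CD11b- subset and -2.20 ± 0.63 for the CD103-CD11b+ subset. With DESeq2 both were called. The first was also called with no low-count filter, and the second without cKO CD103+CD11b- replicate 3.

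*Epcam* (ENSMUSG00000045394, chromosome 17, 87635979 to 87651129) encodes EpCAM, an epithelial cell adhesion molecule that stabilises claudins. It was read at 42.7, 49.9 and 36.1 CPM in WT CD103+CD11b- DCs and at 9.54, 18.5 and 6.26 CPM in cKO. In CD103-CD11b+ DCs the values were 86.5, 48.6 and 73.9 CPM in WT and 26.7, 23.3 and 41.3 CPM in cKO. Genotypes did not overlap in either subset. The cKO effect was -1.88 ± 0.37 on the log2 scale for the CD103+CD11b- subset, which was called, and -1.21 ± 0.35 for the CD103-CD11b+ subset, which was not called by edgeR and was called with DESeq2. The call in CD103+CD11b- DCs held in 4 of the 12 fits that each left out 1 library. It was lost without WT CD103+CD11b- replicate 1 or 2, WT CD103-CD11b+ replicate 1 or 3, cKO CD103+CD11b- replicate 1 or 3, or cKO CD103-CD11b+ replicate 1 or 2. Between subsets *Epcam* was called higher in CD103-CD11b+ DCs within cKO, by a log2 value of 1.37 ± 0.37, and this call was lost without replicate 1 or 3 of either cKO subset.

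The levels of *Epcam*, *Cdh1* and *Plet1* stood beside low levels of intestinal epithelial genes in WT CD103+CD11b- DCs. There the epithelial markers summed to 31.3 to 50.1 CPM, and of the defining markers *Vil1* reached at most 1.62 CPM, *Krt20* 0.229 CPM, *Cdx2* 0.342 CPM and *Alpi* 0.342 CPM. These named markers made up little of the sums, and the levels of the other markers are not given for this group. In WT CD103-CD11b+ DCs the sum was 325 to 391 CPM, with *Lyz1*, the lysozyme of Paneth cells, at 67.7 to 126 CPM, *Agr2* at 63.3 to 118 CPM, *Vil1* at 8.66 to 20.6 CPM and *Alpi* at 0. The *Lyz1* values are uncertain, since the gene closely resembles the myeloid lysozyme gene *Lyz2* and reads of the pair may be hard to assign. In cKO CD103-CD11b+ DCs it was 86.4 to 291 CPM, with *Lyz1* at 55.5 to 136 CPM and *Agr2* at 0.224 to 96.9 CPM. Within cKO CD103+CD11b- DCs, replicate 2 with its epithelial sum of 286 CPM also had the highest *Epcam*, *Cdh1* and *Cdh17* values of its group. The same held for *Mpzl2*, *F11r*, *Tjp1* and *Ctnnd1* and for the stromal and endothelial sum, at 350 CPM. *Cldn1* was lowest in this library, and *Plet1* and *Ctnnb1* lay between the other replicates. With all 3 deviating libraries left out together, *Epcam* and *Plet1* were still called lower in CD103+CD11b- DCs and *Cldn1* was not called in either subset.

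Genes of CD11b+ DCs moved in the same libraries. In CD103+CD11b- DCs, 4 of 10 CD11b+ DC markers were called lower in cKO and 1, *Clec12a*, higher, and the 10 markers summed to 495 to 750 CPM in WT and to 311 to 338 CPM in cKO. *Clec12a* made up 112 ± 3.45 CPM of the WT sums and 203 ± 21.8 CPM of the cKO sums, and against its place in this list it was lower in WT CD103-CD11b+ DCs, at 29.4 ± 5.56 CPM. *Sirpa*, an inhibitory receptor of cDC2s, was 212 ± 73.1 CPM in WT and 30.9 ± 22.6 CPM in cKO (SD, n = 3 each), with a log2 fold change of -2.74 ± 0.53 and an edgeR adjusted p of 0.042. *Clec4a4*, the gene of the lectin DCIR2 of cDC2s, was 5.87 ± 0.927 CPM in WT and 0.293 ± 0.258 CPM in cKO (log2 fold change -4.27 ± 0.53, edgeR adjusted p = 0.0049). *Cd209a*, a C-type lectin gene, was 43.7 ± 26.5 CPM in WT and 5.84 ± 4.15 CPM in cKO (log2 fold change -2.80 ± 0.56, edgeR adjusted p = 0.047). WT CD103+CD11b- replicate 3, with the lowest sum of its group at 495 CPM, also had its lowest *Plet1*, *Cdh1* and *Epcam*. That library was not low for CD11b+ DC markers alone. Its cDC1 (5635 CPM), pan-DC (3327 CPM), macrophage, B-cell and T-cell sums were also the lowest of the group. Its stromal and endothelial sum was the highest, at 694 CPM. The 10 T-cell and ILC markers summed to 206 to 479 CPM in WT and to 60.6 to 136 CPM in cKO CD103+CD11b- DCs, with none of them at 0 in any of these libraries. Of these markers edgeR called 0 between the genotypes in this subset, and DESeq2 called 2 lower. At an unadjusted edgeR p under 0.05 there were 4, all lower, beside 2166 of all 20580 genes in either direction. The part that the CD11b+ DC, T-cell and ILC markers have in the differences of *Plet1*, *Cdh1*, *Epcam* and *Cldn1* was not tested.

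**Figure D2:**
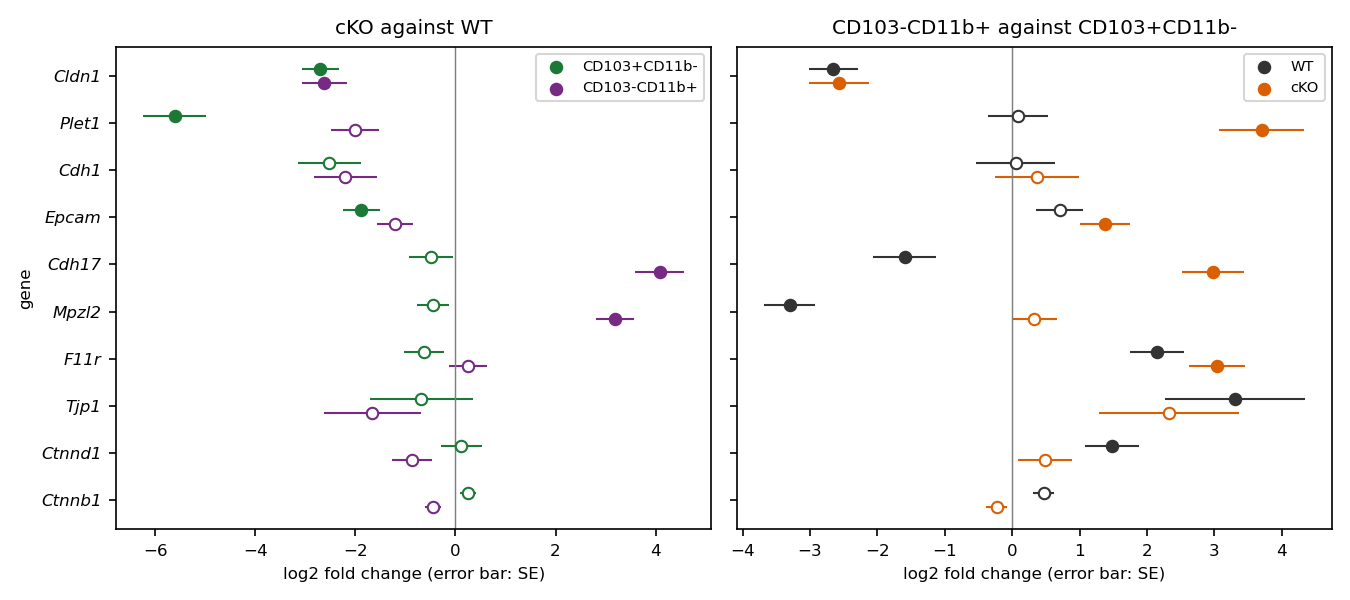
Log2 fold changes of the 10 members with SE, for cKO against WT within each subset (left) and for CD103-CD11b+ against CD103+CD11b- DCs within each genotype (right); filled points were called and open points were not. *Plet1* in CD103+CD11b- DCs (-5.61) and *Cdh17* in CD103-CD11b+ DCs (4.08) lie farthest from 0 on the left.

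*Cdh17* and *Mpzl2* were higher in cKO than in WT CD103-CD11b+ DCs. *Cdh17* (ENSMUSG00000028217, chromosome 4, 11758147 to 11817895) encodes liver-intestine cadherin, which lacks the catenin-binding tail of classical cadherins. In CD103-CD11b+ DCs it was read at 6.85, 3.0 and 4.07 CPM in WT and at 104, 90.9 and 46.9 CPM in cKO, with no overlap and a log2 change of 4.08 ± 0.49. In CD103+CD11b- DCs it was read at 15, 15.3 and 13.1 CPM in WT and at 6.88, 18.1 and 5.48 CPM in cKO, which overlapped, with a log2 change of -0.49 ± 0.45. The order of the subsets in WT was therefore turned round in cKO. *Cdh17* was lower in CD103-CD11b+ than in CD103+CD11b- DCs in WT by a log2 value of -1.60 ± 0.47 and higher in cKO by 2.98 ± 0.46, and both were called. The WT call was lost without WT CD103+CD11b- replicate 1 or 2 or WT CD103-CD11b+ replicate 2 or 3.

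*Mpzl2* (ENSMUSG00000032092, chromosome 9, 45039799 to 45054015) encodes an immunoglobulin-type homophilic adhesion protein, first known from thymus epithelium. In CD103-CD11b+ DCs it was read at 2.74, 0.666 and 2.04 CPM in WT, which are 23 reads over the 3 libraries, and at 15.5, 18.6 and 18.4 CPM in cKO. In CD103+CD11b- DCs the WT values were 14, 19.9 and 22.6 CPM and the cKO values 14.6, 15.1 and 11.7 CPM. The WT CD103-CD11b+ libraries alone were low, and the cKO CD103-CD11b+ libraries lay within the range of WT CD103+CD11b- DCs. The log2 fold change of cKO over WT was 3.18 ± 0.38 in the CD103-CD11b+ subset and -0.45 ± 0.33 in the CD103+CD11b- subset. In WT, *Mpzl2* was lower in CD103-CD11b+ than in CD103+CD11b- DCs by a log2 value of -3.30 ± 0.38, which was called in all 12 fits that left out 1 library. Of its 6968 exon bases, 2138 are shared with the antisense transcript Gm48840. The counting did not use strand, so reads there go to neither gene.

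For 2 members, *Cdh17* and *Mpzl2*, the difference between the cKO effects in the subsets was called, both more positive in CD103-CD11b+ DCs, and for 0 the other way. Of all genes, 0.554% were called in the first direction and 0.0972% in the other. The differences were 4.57 ± 0.65 for *Cdh17* and 3.63 ± 0.50 for *Mpzl2* on the log2 scale. Neither was called without cKO CD103+CD11b- replicate 1. With the 3 deviating libraries left out, *Cdh17* was called and *Mpzl2* was not. The rise of both in CD103-CD11b+ DCs was itself called in all 12 fits that left out 1 library, but that of *Mpzl2* was not called in a fit to the 6 libraries of this comparison alone. Of 12 macrophage markers 1 was called higher in cKO CD103-CD11b+ DCs and 0 lower (median log2 fold change 0.04), and of 10 B-cell and plasma-cell markers 1 was called higher and 0 lower (median 1.14). DESeq2 called 1 macrophage marker and 3 B-cell and plasma-cell markers higher and 0 of either list lower. *Adgre1*, the macrophage gene for F4/80, rose by a log2 value of 1.93 ± 0.38 (edgeR adjusted p = 0.034), and *Ms4a1*, the B-cell gene for CD20, by 3.72 ± 0.47 (edgeR adjusted p = 0.0046). The macrophage markers summed to 599 to 884 CPM in WT and 735 to 1051 CPM in cKO, and the B-cell and plasma-cell markers to 711 to 1200 CPM and 842 to 1481 CPM. Of the DC markers, *Clec12a* rose by 2.28 ± 0.18 (edgeR adjusted p = 0.00049) and *Clec4a4* by 1.71 ± 0.35 (edgeR adjusted p = 0.040), while *Itgae*, which encodes CD103, fell by 1.89 ± 0.36 (edgeR adjusted p = 0.030). The part of these genes in the values of *Cdh17* and *Mpzl2* was not tested.

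The other 4 members were not called between genotypes in either subset. Between the subsets, 3 members were called higher in CD103-CD11b+ than in CD103+CD11b- DCs in WT and 3 lower, beside 11.8% and 7% of all genes. In cKO, 4 were called higher and 1 lower, beside 9.26% and 6.81% of all genes. The median log2 difference over the members was 0.28 in WT and 0.93 in cKO, against 0.07 and 0.11 over all genes. The comparisons share their libraries with those of the genotypes and are no separate evidence.

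*F11r* (ENSMUSG00000038235, chromosome 1, 171437535 to 171464603) encodes JAM-A, a junctional adhesion molecule of epithelium, endothelium and leukocytes. CD103+CD11b- DCs held 30.8, 20.1 and 29.7 CPM in WT and 21.7, 23.7 and 5.08 CPM in cKO. CD103-CD11b+ DCs held 93.4, 150 and 115 CPM in WT and 131, 156 and 140 CPM in cKO. The subsets did not overlap in either genotype, whereas the genotypes overlapped in both subsets. *F11r* was higher in CD103-CD11b+ DCs by a log2 value of 2.15 ± 0.40 in WT and 3.04 ± 0.41 in cKO, and both were called. Both were called in each of the 12 fits that left out 1 library. cKO CD103-CD11b+ replicate 3, in which the stromal and endothelial sum was 123 CPM, held 140 CPM of *F11r*, between the values of the other replicates. This is 1 library, and the part of those markers in the *F11r* values was not tested.

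*Tjp1* (ENSMUSG00000030516, chromosome 7, 65296165 to 65527781, minus strand) encodes ZO-1, the scaffold that links tight junctions to actin. It was read at 5.81, 4.35 and 50.3 CPM in WT CD103+CD11b- DCs and at 78.9, 285 and 256 CPM in WT CD103-CD11b+ DCs. In cKO it was read at 7.10, 25.6 and 5.48 CPM in CD103+CD11b- DCs and at 71.4, 112 and 9.69 CPM in CD103-CD11b+ DCs. The subsets did not overlap in WT and overlapped in cKO, and 1 replicate of each group lay apart from the others. In each of these the stromal and endothelial sum lay the same way, at 1148 CPM in WT CD103-CD11b+ replicate 1, 694 CPM in WT CD103+CD11b- replicate 3, 350 CPM in cKO CD103+CD11b- replicate 2 and 123 CPM in cKO CD103-CD11b+ replicate 3. The sums over groups ran from 95.2 to 694 CPM in WT CD103+CD11b-, 1148 to 3195 CPM in WT CD103-CD11b+, 99.0 to 350 CPM in cKO CD103+CD11b- and 123 to 2266 CPM in cKO CD103-CD11b+ DCs. Their part in the *Tjp1* values was not tested.

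The log2 difference of *Tjp1* between the subsets was 3.30 ± 1.04 in WT, which was called, and 2.33 ± 1.04 in cKO, which was not. Same-numbered cKO libraries deviated together over genes. With the replicate number within a genotype as a block, which pairs same-numbered libraries of the subsets, the cKO difference of 2.33 was called. It was also called with the 3 deviating libraries left out. The WT call was lost in 9 of the 12 fits that left out 1 library, kept only without WT CD103+CD11b- replicate 3, WT CD103-CD11b+ replicate 1 or cKO CD103-CD11b+ replicate 3. Its value without WT CD103+CD11b- replicate 3 was 5.29. The cKO effect on *Tjp1* was -0.69 ± 1.03 among CD103+CD11b- DCs and became 1.37 without that same replicate. In CD103-CD11b+ DCs it was -1.66 ± 0.97.

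**Figure D3:**
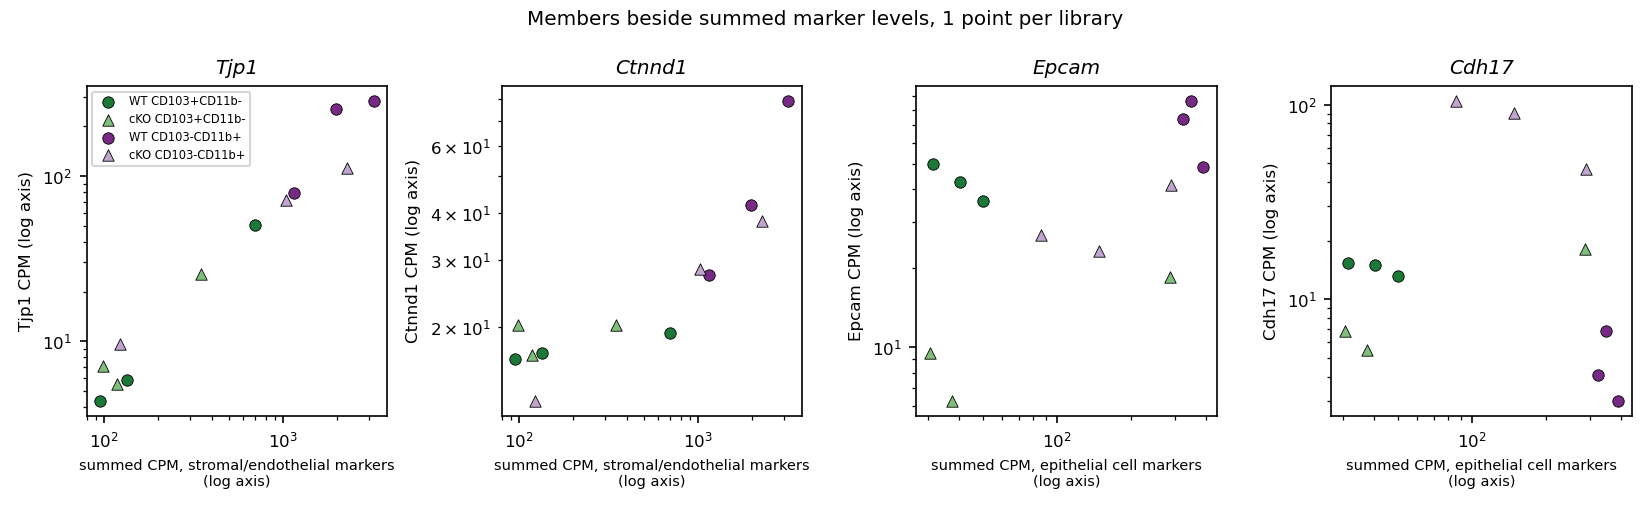
*Tjp1* and *Ctnnd1* against the summed CPM of 10 stromal and endothelial markers, and *Epcam* and *Cdh17* against the summed CPM of 28 intestinal epithelial markers, 1 point per library, log axes. *Tjp1* is ordered much as the stromal and endothelial sum in libraries of all 4 groups, while *Cdh17* is highest in the 3 cKO CD103-CD11b+ libraries, whose epithelial sums were 86.4 to 291 CPM.

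*Ctnnd1* (ENSMUSG00000034101, chromosome 2, 84600071 to 84650765, minus strand) encodes p120-catenin, which keeps classical cadherins at the surface. In CD103+CD11b- DCs it was read at 17.1, 16.5 and 19.2 CPM in WT and at 20.2, 20.3 and 16.8 CPM in cKO. In CD103-CD11b+ DCs the values were 27.4, 79.0 and 41.9 CPM in WT and 28.5, 38.1 and 12.7 CPM in cKO. The CD103+CD11b- libraries were close to each other in both genotypes, and the spread lay in CD103-CD11b+ DCs. The subset difference was 1.48 ± 0.40 in WT, which was called, and 0.49 ± 0.40 in cKO, which was not. The WT call was lost without any 1 replicate of WT CD103+CD11b- DCs or WT CD103-CD11b+ replicate 2. The highest and the lowest *Ctnnd1* value were in the libraries with stromal and endothelial sums of 3195 and 123 CPM, and the part of those markers was not tested. Of its 7319 exon bases, 4482 are shared with the readthrough gene Gm28635, which has no counts of its own here, and reads there go to neither gene.

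*Ctnnb1* (ENSMUSG00000006932, chromosome 9, 120929216 to 120960507) encodes beta-catenin and was the most even member. It was read at 287, 272 and 255 CPM in WT and 286, 328 and 355 CPM in cKO CD103+CD11b- DCs. In CD103-CD11b+ DCs it was read at 285, 466 and 373 CPM in WT and 262, 295 and 269 CPM in cKO. Groups overlapped in all 4 comparisons, and edgeR called none. Its higher level in WT CD103-CD11b+ than in WT CD103+CD11b- DCs was called with DESeq2, with 5 or more counts required in every library, and without WT CD103-CD11b+ replicate 1. The log2 fold change of cKO over WT was 0.25 ± 0.16 for the CD103+CD11b- subset and -0.44 ± 0.16 for the CD103-CD11b+ subset.

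Levels can be set between genes only per length of exon, here as mean CPM per kilobase (kb) of exon bases not shared with another gene. In WT CD103+CD11b- DCs *Ctnnb1* was highest at 61.6 CPM per kb (57.9 to 65.1 over the libraries), above all values of the others. *Plet1* at 36.0 (21.9 to 46.0) and *Cdh1* at 32.8 (14.8 to 47.4) followed and overlapped each other and *Epcam* at 19.5 (16.4 to 22.7). *Cldn1* at 10.3 (8.19 to 13.1) and *F11r* at 10.1 (7.56 to 11.6) overlapped, and *Ctnnd1*, *Mpzl2*, *Cdh17* and *Tjp1* came below with 2.58 to 6.20 CPM per kb. In cKO CD103+CD11b- DCs *Plet1* had the lowest mean, at 0.789 CPM per kb (0.395 to 1.39), and its range overlapped those of *Tjp1*, *Cdh1*, *Cldn1* and *Cdh17*. In cKO CD103-CD11b+ DCs *Ctnnb1* at 62.4 (59.5 to 66.9) and *F11r* at 53.4 (49.1 to 58.4) led, followed by *Cdh17* at 18 (10.5 to 23.3) and *Epcam* at 13.9 (10.6 to 18.8), which overlapped. *Cdh17* was 1.04 CPM per kb (0.670 to 1.53) in WT CD103-CD11b+ DCs, where *Mpzl2* alone among the members was lower, at 0.376 (0.138 to 0.567).

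Other junction genes, listed by textbook role, were read in the same fit to set the members beside their pathways. Of 40 tight junction genes 32 were tested, and edgeR called 0 of them between genotypes in either subset, with median log2 fold changes of 0.02 in CD103+CD11b- and -1.43 in CD103-CD11b+ DCs. At an unadjusted p under 0.05 there were 5 in CD103+CD11b- DCs and 7, all lower in cKO, in CD103-CD11b+ DCs, while DESeq2 called 1 and 3. Of all 20580 genes, 2166 and 3590 had such an edgeR p in these comparisons, which also stands beside the lists below. In WT, 12 were higher and 0 lower in CD103-CD11b+ than in CD103+CD11b- DCs, beside 11.8% and 7% of all genes. Claudin-2 (*Cldn2*) was 40.6 ± 21.8 CPM there against 0.108 ± 0.187 CPM (log2 difference 7.86 ± 1.98, edgeR adjusted p = 0.021). The junction protein genes *Igsf5* and *Cgn* rose to only 3.46 ± 2.77 and 2.33 ± 1.07 CPM, with edgeR adjusted p of 0.022 and 0.043. In cKO, *Jam3* was higher in CD103-CD11b+ DCs, and *Marveld2*, *Patj* and *Mpp5* were lower. *Cldn1* was lower in CD103-CD11b+ DCs in both genotypes. The stromal and endothelial sums and the epithelial sums given above were also higher in WT CD103-CD11b+ than in WT CD103+CD11b- DCs. In cKO CD103-CD11b+ DCs the epithelial sums were 86.4 to 291 CPM against 325 to 391 CPM in WT, and the stromal and endothelial sums 123 to 2266 CPM against 1148 to 3195 CPM. The part of these markers in either comparison was not tested.

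Among 35 tested adherens junction and cadherin genes of 38, edgeR called 1 lower in cKO CD103+CD11b- DCs and 2 lower in cKO CD103-CD11b+ DCs. DESeq2 called 1 higher and 2 lower in the former and 7 lower in the latter. By edgeR, the first was *Ctnnd2*, delta-catenin, a relative of *Ctnnd1*, at 117 ± 46.1 CPM in WT and 16.6 ± 4.27 CPM in cKO (log2 fold change -2.79 ± 0.35, edgeR adjusted p = 0.0049). In WT and cKO CD103-CD11b+ DCs it was 222 ± 56.2 and 141 ± 38.5 CPM. The others were *Ctnnbip1*, an inhibitor of beta-catenin and TCF binding, which fell by 1.28 ± 0.22 on the log2 scale (edgeR adjusted p = 0.020), and *Afdn*, afadin, which fell by 0.74 ± 0.15 (edgeR adjusted p = 0.035). Between subsets in WT, 12 genes were higher and 0 lower in CD103-CD11b+ DCs, beside 11.8% and 7% of all genes. N-cadherin (*Cdh2*) was the farthest, at 14 ± 11.1 against 0.162 ± 0.280 CPM. Of 8 desmosome genes tested of 13, edgeR and DESeq2 called 0 between genotypes in either subset, with 3 and 1 at an unadjusted p under 0.05. In WT, 4 (*Dsg2*, *Dsc2*, *Dsp*, *Ppl*) were higher by edgeR in CD103-CD11b+ DCs, beside 11.8% of all genes.

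EpCAM partners and related surface adhesion genes, 18 listed and tested, held 1 edgeR call between genotypes. DESeq2 called 2 higher and 2 lower in cKO CD103+CD11b- DCs and 1 higher and 1 lower in cKO CD103-CD11b+ DCs. *Ceacam1*, a homophilic adhesion receptor, was 40.6 ± 13.5 CPM in WT and 10.2 ± 6.0 CPM in cKO CD103+CD11b- DCs (log2 fold change -1.94 ± 0.39, edgeR adjusted p = 0.047). The tetraspanin gene *Cd9* and *Cd44*, whose products associate with EpCAM, and *Spint1*, a protease inhibitor gene, were not called, and *Cd9* ranged from 83.1 to 92.0 CPM in WT and from 94.8 to 115 CPM in cKO CD103+CD11b- DCs. *Cadm1*, an adhesion gene of cDC1s, was lower in CD103-CD11b+ DCs in WT by -4.07 ± 0.24 (edgeR adjusted p = 4.4e-06).

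Of 31 tested beta-catenin pathway genes of 32, edgeR called 2 lower in cKO CD103+CD11b- DCs and 1 higher in cKO CD103-CD11b+ DCs. DESeq2 called 1 higher and 2 lower in each subset. *Rnf43*, a ubiquitin ligase that removes Wnt receptors, was 22.0 ± 3.67 CPM in WT and 4.88 ± 0.874 CPM in cKO CD103+CD11b- DCs (log2 fold change -2.15 ± 0.30, edgeR adjusted p = 0.0096). *Rnf43* was 31.6 ± 12.9 and 34.3 ± 4.64 CPM in WT and cKO CD103-CD11b+ DCs, and its cKO effects differed between the subsets by 2.26 ± 0.41 (edgeR adjusted p = 0.040). *Bcl9l*, a coactivator gene, fell by 1.38 ± 0.26 on the log2 scale in CD103+CD11b- DCs (edgeR adjusted p = 0.039), and its relative *Bcl9* rose by 0.73 ± 0.13 in CD103-CD11b+ DCs (edgeR adjusted p = 0.020). The pathway's calls thus stood beside a *Ctnnb1* level that was not called.

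Of 20 tested genes of 25 in the list of epithelial programme and epithelial-mesenchymal transition (EMT) regulators, edgeR called 2 lower in cKO CD103+CD11b- DCs, and DESeq2 also called 2 lower. edgeR called 0 in the other subset, where 6 had an unadjusted p under 0.05 and DESeq2 called 3. *Zeb2*, a repressor of *Cdh1* in epithelium, was 238 ± 89.1 CPM in WT and 57.1 ± 27.6 CPM in cKO CD103+CD11b- DCs (log2 fold change -2.04 ± 0.38, edgeR adjusted p = 0.034). *Smad7*, an inhibitor of TGFβ signalling, fell by 1.03 ± 0.16 on the log2 scale (edgeR adjusted p = 0.015). Both *Zeb2* and *Cdh1* thus had lower means in cKO CD103+CD11b- DCs. In WT, 6 regulators were higher in CD103-CD11b+ DCs, beside 11.8% of all genes. Among them was *Ehf*, an epithelial Ets factor, at 70.0 ± 36.2 against 2.21 ± 0.923 CPM (log2 difference 4.97 ± 0.72, edgeR adjusted p = 0.0017). *Ehf* was 68.9 ± 27.6 CPM in cKO CD103-CD11b+ and 0.651 ± 1.13 CPM in cKO CD103+CD11b- DCs.

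**Figure D4:**
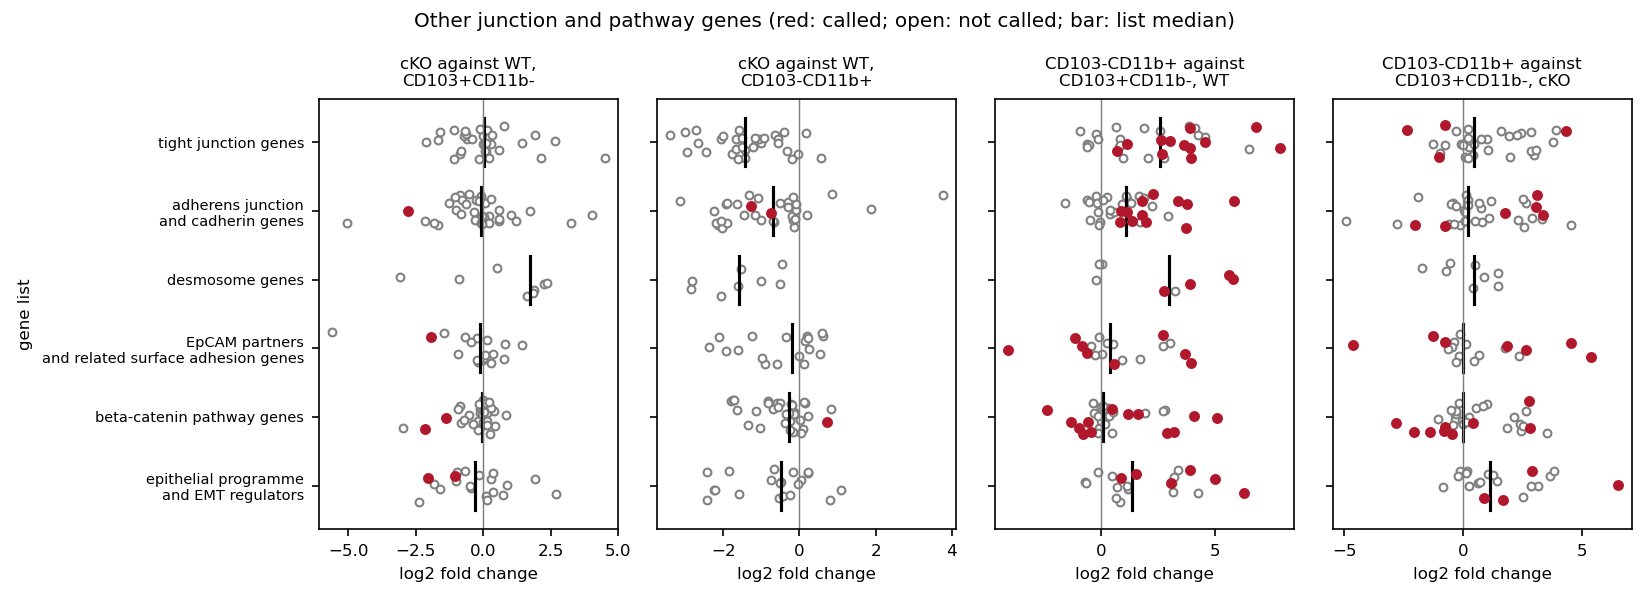
Log2 fold changes of the genes of 6 other lists in 4 comparisons; red points were called, open points were not, the black bar is the list median and points are spread vertically at random. Red points are few in the genotype panels (0 of 32 tight junction genes in either subset) and more in the WT subset panel (12 of 32). Over all genes, calls were also fewer between genotypes, at 0.797% lower and 0.224% higher in cKO CD103+CD11b- DCs. In cKO CD103-CD11b+ DCs they were 0.5% lower and 1.11% higher, and between the WT subsets 11.8% higher and 7% lower.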

How the data were processed

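RNA-seq libraries were made by the authors from few sorted DCs by a bulk form of RamDA-seq with PCR amplification. Per the submitters' processing notes and the methods, reads were trimmed with Trim Galore, aligned to mm10 with STAR 2.7, freed of poorly mapped reads and duplicates, and counted per Ensembl gene with HTSeq without strand. The deposited values are raw counts per gene, 1 file per library. In each library 59.7% to 66.1% of the reads that HTSeq tallied were classed as on no counted feature and were left out of library sizes and tests. Whether these reads lay within genes, as in introns, was not examined.

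Counts were scaled by TMM and tested with edgeR 4.0.16 (R 4.3.3), 1 quasi-likelihood model of the 4 groups, over the genes that reached 5 counts in any library, adjusted by Benjamini-Hochberg over all genes. A call was FDR under 0.05 with a fold change over 1.3. CPM use TMM-scaled library sizes, and an SE is the log2 fold change over the root of F. The members were chosen with earlier results of these data known. The other lists were set by textbook role and not by their values, but such results were known then too. All members are reported, and of each other list up to 3 called genes with the largest changes per genotype comparison, plus defining markers. The rule covered the subset comparisons too, but only some of those genes are named. *Cd9*, *Cd44* and *Spint1* were added after their values were seen. Of the gene IDs, 99.66% matched GENCODE M21. The model was tested on simulated data with independent noise in each library. That simulation held neither the shared deviations of libraries nor the genes of other cells seen here, so it does not bear on them. Replicate numbers were shared by all groups. Same-numbered cKO libraries of the subsets deviated together (r = 0.25 to 0.52 in each of 3 pairs), although no label says that they share a mouse. Printed fits have no block, and the blocked result is given where it changed a call. DESeq2 1.42.0, other filters and scalings, and leaving out libraries were the alternatives. Leaving out 3 libraries together was added after seeing the data.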

Additional observations from a re-analysis of the deposited data

Results flagged for a closer look

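The cKO effect differed between the subsets for 2 of the members. *Cdh17* was higher in cKO in 3 of 3 CD103-CD11b+ libraries than in any WT library of that subset, and the log2 difference of its effects (CD103-CD11b+ minus CD103+CD11b-) was 4.57 ± 0.65. *Mpzl2* did likewise, with a log2 difference of 3.63 ± 0.50. Both came from the interaction term of the edgeR fit and are descriptions, since the genes were chosen on these data.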

How the results depend on the processing

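No member called in a comparison changed sign under any alternative. The numbers of members called are given in the order cKO against WT in CD103-CD11b+ DCs (3), the same in CD103+CD11b- DCs (3), the difference of these effects (2), the subsets in WT (6) and the subsets in cKO (5). Leaving out each library in turn gave 2 to 4, 1 to 3, 0 to 3, 3 to 7 and 4 to 5. With 5 or more counts in every library only 7 members were tested, since *Cldn1*, *Plet1* and *Mpzl2* were removed, and the numbers that changed by over 1.5 times were 1, 1, 1 and 3 for the first, the second, the third and the fifth. DESeq2 gave 6 for the first, and a fit to the 6 libraries of that comparison gave 1, *Cldn1* and *Mpzl2* being lost. Such fits also lost *Epcam* in the second and the fifth and *Tjp1* in the fourth. FDR under 0.01 gave 0 for the third and 3 for the fourth, and lost *Cldn1* in the first and *Epcam* in the second and the fifth. Without the 3 libraries with deviating marker sums, the third gave 1, *Cdh17* alone, a count chosen after seeing the data. The other numbers stayed within 1.5 times. The causes were not tested.

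The block was the replicate number for the first and the second comparison. For the third, the fourth and the fifth it was the replicate number within a genotype. With these blocks, the numbers were 4, 3, 2, 6 and 6, *Plet1* and *Tjp1* being gained. Same-numbered WT and cKO libraries correlated at r = 0.08 to 0.54 in CD103-CD11b+ DCs and at -0.04 to 0.26 in CD103+CD11b- DCs, and those of the WT subsets at -0.07 to 0.39, so that not every pair of these was over 0.1. Depth limits *Cldn1*, *Plet1* and *Mpzl2*, each with 13 to 23 reads in its lowest group.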

Other observations

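For the 3 members that varied most over the 12 libraries, the 3 other genes with the most similar pattern were sought among genes with a mean of 20 or more counts, by the root mean square (RMS) difference of centred log2 CPM. *Plet1* was nearest to *Tlr5* (0.82), *S100a6* (0.96) and *Slc8a2* (1.05). *Cldn1* was nearest to *Plxdc1* (0.91), *Ccr9* (0.93) and *Haspin* (0.96). *Tjp1* was much nearer to its neighbours, *Cav1* (0.23), *Id1* (0.25) and *Mall* (0.26), with *Cav1* a gene known from endothelium. The likeness is a description over libraries that share their groups, depth and other cell types.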
